A study of Mus musculus with 16 samples.

Results

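RNA levels of 44 genes of amino acid supply and the integrated stress response were followed in primary lung fibroblasts with and without meflin, at rest and after TGF-β1. The genes were chosen by name, as regulators of this response and genes that supply or charge amino acids. Many of them are known targets of the transcription factor ATF4. The choice was made with earlier results of these data known, so counts of members beside all genes are descriptions, with no set test. They comprise 8 regulators, 5 stress outputs, 6 enzymes of amino acid synthesis, 4 of one-carbon metabolism, 9 transporters and 12 enzymes that charge tRNA in the cytosol. Of the 22906 genes named on the array, 43 members had a probe, and all 43 were among the 15394 genes tested. The brightest probe of each of these 43, used unless another is named, lay well above background on all 16 arrays. The remaining member, Pycr1, was not analysed here.

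The cells came from lungs of 8-week-old mice labelled female, freed by enzymatic digestion. Mice were either wild type C57BL/6J or knockout for meflin, the membrane-anchored fibroblast protein encoded by Islr. The 4 groups were wild type with vehicle, wild type with recombinant TGF-β1, knockout with vehicle and knockout with TGF-β1, each kept for 48 h with TGF-β1 at 5 or 0 ng/ml. This cytokine drives fibroblasts towards matrix-producing myofibroblasts. Each group had 4 arrays, described by the submitters as independent experiments, and nothing further ties arrays to separate mice, so p-values measure the spread between these arrays. How the knockout allele was made, and the strain background of the knockout mice, are not given in the sources used here.

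The integrated stress response begins when kinases such as GCN2 and PERK phosphorylate the initiation factor eIF2. General translation then falls while translation of the Atf4 message rises, so that much of ATF4 control lies at the protein level, which arrays do not measure. ATF4, often paired with a C/EBP protein, switches on genes that make, import and charge amino acids, together with feedback genes such as Trib3 and Ddit3. In fibroblasts this supply matters because collagen is rich in glycine and proline, and the serine and one-carbon route is a source of glycine.

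Many ATF4 targets carry a C/EBP-ATF response element, and the data show members that moved together, so the member promoters were searched for it. RefSeq windows of 300 bases on GRCm38.p6, 250 before and 50 after the annotated start, were found for 37 members. The element, searched as TGATGNAA on both strands, occurred in the windows of 14 of these 37 members (37.8%) against 3.97% of all 32851 windows and 2.97% of the 12174 tested genes that had one. Since members were picked as genes of the ATF4 type, that share is a description of the choice and not independent of it. The sequences below show the element in capitals with up to 20 bases of flank on each side, read 5′ to 3′ on the strand of the gene.
Asns (chr6:7693210-7693252, minus strand): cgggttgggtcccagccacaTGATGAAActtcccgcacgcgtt
Chac1 (chr2:119351029-119351076, plus strand): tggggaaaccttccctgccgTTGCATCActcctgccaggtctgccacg
Nupr1 (chr7:126625553-126625600, minus strand): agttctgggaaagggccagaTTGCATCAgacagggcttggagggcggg
Tars (chr15:11399659-11399693, minus strand): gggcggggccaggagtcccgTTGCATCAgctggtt
Gars (chr6:55037951-55037998, plus strand): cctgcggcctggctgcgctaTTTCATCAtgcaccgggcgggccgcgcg
Slc7a11 (chr3:50443652-50443699, minus strand): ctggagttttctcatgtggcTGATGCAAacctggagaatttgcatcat
Slc7a11 (chr3:50443633-50443680, minus strand): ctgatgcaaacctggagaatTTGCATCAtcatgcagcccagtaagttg
Atf3 (chr1:191183416-191183463, minus strand): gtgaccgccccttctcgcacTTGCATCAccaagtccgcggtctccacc
The first 5 of these lines belong to members that rose with TGF-β1, and the last 3 to Slc7a11 and Atf3, which fell. Slc7a11 holds the element once on each strand, so its 2 lines overlap. Trib3, Vldlr, Pycr1, Slc1a4, Aars, Yars and Iars also hold a match in the window.

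Other elements were rarer in these windows. The AP-1 element TGACTCA occurred in those of Ddit3 and Slc7a1, 2 of 37 members (5.41%). It was found in 5.20% of all windows and for 4.94% of the tested genes that had a window. Neither the cAMP response element TGACGTCA nor the ER stress response element ERSE occurred in a member window. They were found in 1.79% and 0.119% of all windows, and for 3.33% and 0.181% of the tested genes that had a window. A match describes letters in a short window and does not show that a factor binds. The 13 measured members with the C/EBP-ATF element had a median TGF-β1 difference of 0.82 log2 units in wild type and 1.28 in knockout cells, beside 0.82 and 1.18 for the 23 members with a window but no match.

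Signals are given as log2 of the processed spot intensity after all arrays were shifted to a common 75th percentile. Before the shift this percentile was 486 to 526 with vehicle and 429 to 452 with TGF-β1 in wild type cells. In knockout cells it was 470 to 519 and 382 to 446, and the cause of these differences was not tested. A difference of 1 is a 2-fold change, levels are not compared between probes, and values after ± are standard errors. Islr was well above background on all 8 wild type arrays and on 0 of 8 knockout arrays. Knockout cells lay at least 138-fold below wild type with vehicle and at least 19.7-fold below it with TGF-β1, although the single Islr probe may lie outside the deleted part. All 10 fibroblast markers were well above background on every array. With TGF-β1 7 of them rose and 3 fell in wild type cells (sums of 509024 to 565911 with vehicle and 640654 to 671925 with TGF-β1). In knockout cells 6 rose and 4 fell, 3 of these at least 2-fold (540358 to 575713 and 603012 to 650049). Under TGF-β1 2 were higher and 4 lower in knockout than in wild type cells. The 12 macrophage and leukocyte markers were also above background throughout, and 11 of them fell with TGF-β1 in each genotype. Their summed scaled intensity was 165497 to 190808 for wild type with vehicle, 92332 to 98975 for wild type with TGF-β1, 139105 to 143650 for knockout with vehicle and 66913 to 72931 for knockout with TGF-β1. All 10 endothelial markers fell in both genotypes, from sums of 5427 to 5846 to 2676 to 2796 in wild type and from 4961 to 5103 to 1763 to 1878 in knockout cells. Among mesothelial markers, 6 of 9 fell in wild type cells (sums of 43167 to 46419 with vehicle and 31441 to 32498 with TGF-β1) and 8 of 9 in knockout cells (39071 to 39780 and 14095 to 16087). Of 12 epithelial markers 9 were tested (Epcam, Sftpa1 and Nkx2-1 did not pass the background filter), with 3 up and 4 down in wild type and 4 up and 3 down in knockout cells. Their sums were 8978 to 9756 with vehicle and 11742 to 12588 with TGF-β1 in wild type, and 8032 to 8433 and 12215 to 13530.5 in knockout cells. These sums hide the falls, which were all at least 2-fold (down to -4.80 in wild type and -6.27 in knockout cells), while no rise reached 2-fold. Epithelial markers above background on all arrays of a group numbered 9 with vehicle and 5 with TGF-β1 in wild type, and 8 and 5 in knockout cells. Of 8 pericyte and smooth muscle markers 3 rose and 3 fell in wild type cells (sums of 21894 to 23459 and 24308 to 26901), and 4 rose and 3 fell in knockout cells (24114 to 26074 and 25578 to 27291). The part of these cells in the results was not tested, and in bulk RNA fewer cells of a type and less RNA per cell cannot be told apart.

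TGF-β1 raised most of the list in both genotypes. In wild type cells 37 of 43 members rose, 2 fell (Slc7a11 and Atf3) and 4 did not pass an adjusted p of 0.05 in limma, against 68.6% of all tested genes called, 41.3% higher and 27.3% lower. In knockout cells 37 rose, 5 fell and 1 did not pass, against 82.5% of all tested genes called, 46.6% higher and 35.9% lower. The median difference was 0.82 over the members and 0.077 over all genes in wild type cells, and 1.28 and 0.10 in knockout cells. Rises of at least 2-fold numbered 11 in wild type cells, where 3.26% of all genes rose that far, and 27 in knockout cells, where 9.56% did. The TGF-β1 and vehicle arrays did not overlap for 35 higher and 2 lower members in wild type cells, where 38% and 25% of all genes did not, and for 36 higher and 5 lower members in knockout cells, where 43.9% and 33.3% did not. With quantile normalization the median over all genes moved from 0.10 to -0.013 in knockout cells, and the members' median above that of all genes was 0.95 in place of 1.18. Within slide 1 the members' median was 0.75 in wild type and 1.27 in knockout cells, and within slide 2 it was 0.82 and 1.26.

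**Figure D1:**
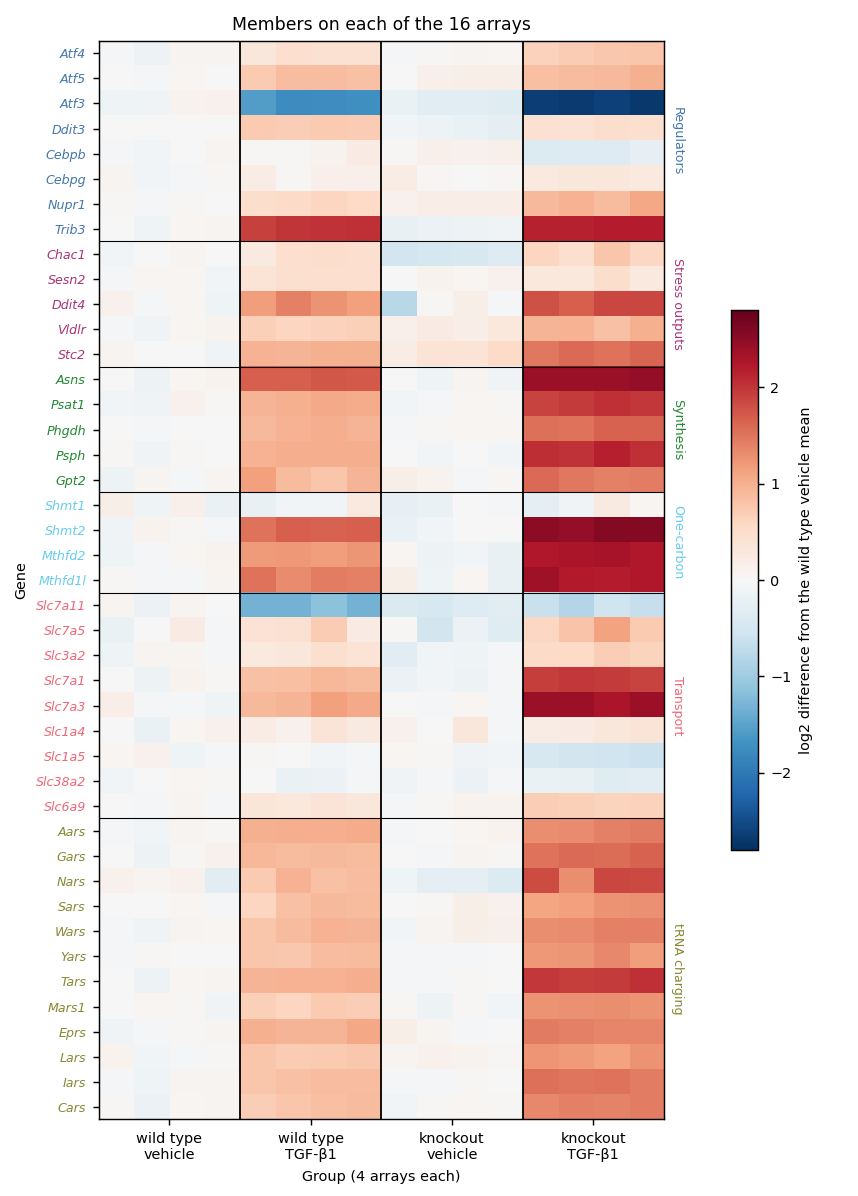
Heat map of 43 members (rows, coloured by role) on 16 arrays (columns, 4 per group), with colour giving the log2 difference from the gene's mean over the 4 wild type vehicle arrays. Most rows turn red with TGF-β1 and deeper red in knockout than in wild type cells, while Atf3 and Slc7a11 turn blue.

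The array-level medians show the same order without a model. Relative to the wild type vehicle mean, the median over members was between 0.74 and 0.87 on the wild type TGF-β1 arrays and between 1.27 and 1.35 on the knockout TGF-β1 arrays. On the knockout vehicle arrays it lay between -0.03 and 0.03. The 4 groups thus form 3 levels, with both vehicle groups together at the bottom.

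The difference between the responses was tested as the interaction of genotype and TGF-β1. It was positive and past the threshold for 31 members, negative for 3 and not past it for 9, against 58.2% of all genes called, 31.7% positive and 26.5% negative. It reached 2-fold for 7 members, where 3.24% of all genes did. The median interaction was 0.39 over members and 0.047 over all genes. With quantile normalization 20 of the 31 positive calls were kept, 7 members were called negative (Atf5, Ddit3, Sesn2 and Slc38a2 joining Atf3, Cebpb and Slc1a5) and the median was 0.20, with -0.023 over all genes. The share of positive calls among all called genes moved from 54.5% to 43.6% at the same time. Within slide 1 the median interaction was 0.43, with 24 of the 31 positive calls kept, and within slide 2 it was 0.41, with 29 kept. With the 75th percentile scaling, 30 members rose in both genotypes and more in knockout cells, a pattern that 21.2% of all genes showed.

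**Figure D2:**
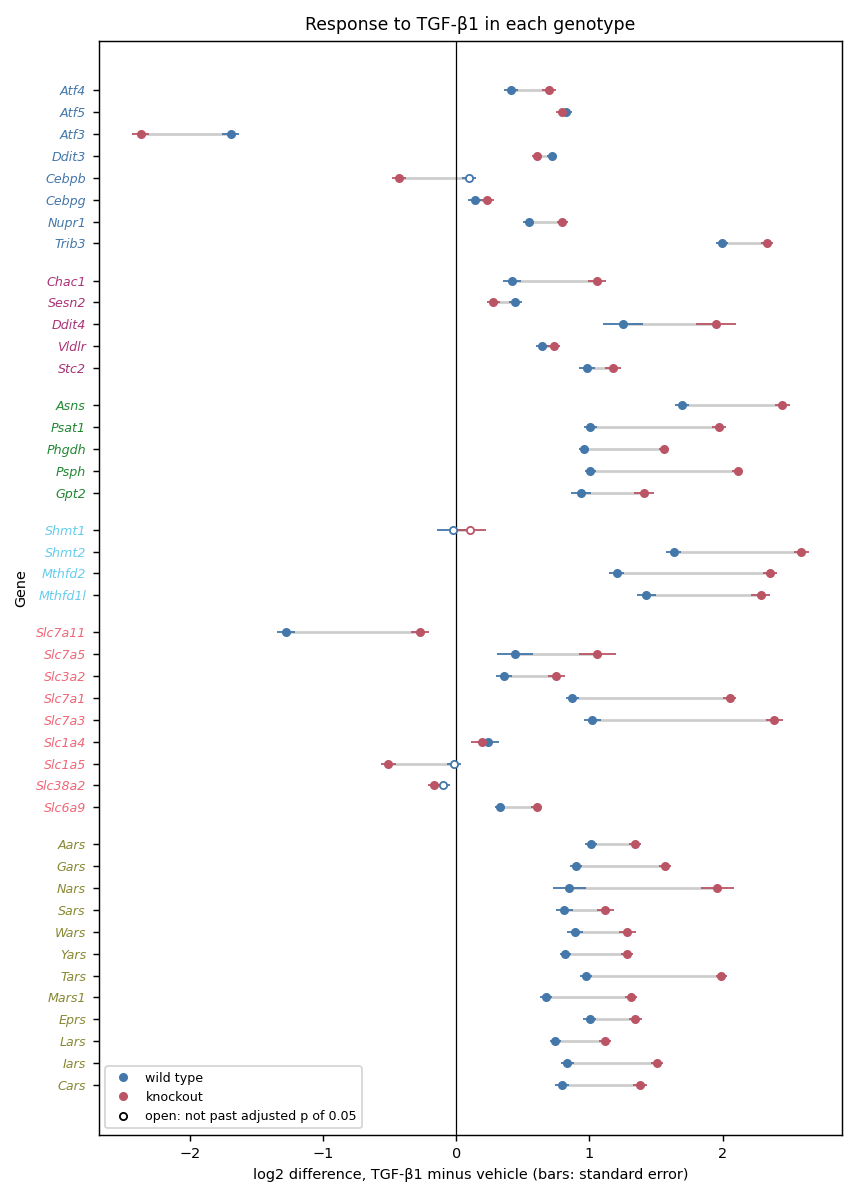
Log2 difference between TGF-β1 and vehicle (horizontal axis) for each member (vertical axis, coloured by role) in wild type (blue) and knockout cells (red), with standard errors as bars and open points where the adjusted p was not under 0.05. All 12 charging enzymes lie further right in knockout cells, and Slc7a11, Atf3, Cebpb, Slc1a5, Slc38a2 and Shmt1 lie left of 0 in at least 1 genotype.

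The regulators divided. Atf4, the transcription factor at the centre of the response, stood at 16.22, 16.11, 16.34 and 16.34 in wild type cells with vehicle and at 16.58, 16.71, 16.67 and 16.69 with TGF-β1. In knockout cells it was 16.21, 16.29, 16.33 and 16.31 with vehicle and 16.91, 16.97, 17.00 and 17.04 with TGF-β1. The TGF-β1 groups lay wholly above the vehicle groups in each genotype, and the knockout TGF-β1 arrays were the highest of all. Atf4 RNA rose by 0.41 ± 0.052 in wild type cells (adjusted p = 5.67e-06) and by 0.69 ± 0.052 in knockout cells (adjusted p = 6.61e-09), with an interaction of 0.28 ± 0.074 (adjusted p = 0.00408) that was lost with quantile normalization. A dimmer Atf4 probe gave 0.47 and 0.97.

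Trib3, a pseudokinase that feeds back on ATF4, had the largest rise of the list in wild type cells. Its log2 signals in wild type cells were 12.20, 12.06, 12.23 and 12.26 with vehicle and 14.10, 14.19, 14.22 and 14.23 with TGF-β1. In knockout cells they were 11.97, 12.02, 12.04 and 12.09 with vehicle and 14.35, 14.34, 14.38 and 14.38 with TGF-β1. No TGF-β1 array came within 1 unit of a vehicle array. The rise was 2.00 ± 0.045 (4-fold, adjusted p = 3.31e-14) in wild type and 2.33 ± 0.045 (5.04-fold) in knockout cells. Under TGF-β1 Trib3 was 0.18 ± 0.045 higher in knockout cells (adjusted p = 0.0027), but the sign turned with quantile normalization, and also in the values the authors deposited, to -0.067 with each, and the interaction of 0.34 ± 0.064 was lost.

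Atf3, a bZIP repressor that stress induces quickly, moved the other way. With vehicle it read 10.89, 10.91, 11.12 and 11.14 in wild type cells, and with TGF-β1 9.45, 9.25, 9.28 and 9.30. Knockout arrays read 10.82, 10.71, 10.71 and 10.67 with vehicle and 8.37, 8.33, 8.41 and 8.31 with TGF-β1. Each group lay apart from the others, with knockout TGF-β1 the lowest. Atf3 fell by 3.24-fold in wild type cells (-1.70 ± 0.062, adjusted p = 4.95e-12) and by 5.18-fold in knockout cells (-2.37 ± 0.062, adjusted p = 2.28e-14), and the interaction was -0.68 ± 0.087 (adjusted p = 1.05e-05). It was lower in the knockout with either treatment, with differences of -0.29 with vehicle and -0.96 with TGF-β1.

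Ddit3 encodes CHOP, a C/EBP-family factor that promotes death under lasting stress. Its signal in wild type cells was 10.09, 10.09, 10.09 and 10.06 with vehicle and 10.82, 10.77, 10.82 and 10.80 with TGF-β1, and in knockout cells 10.00, 9.93, 9.91 and 9.81 with vehicle and 10.50, 10.49, 10.57 and 10.52 with TGF-β1. It rose by 0.72 ± 0.036 and 0.61 ± 0.036, and unlike Atf4 and Trib3 it was lower in knockout cells under TGF-β1 (-0.28 ± 0.036, adjusted p = 5.69e-06), with no overlap between the genotypes. The interaction of -0.11 ± 0.052 did not pass (adjusted p = 0.075), although it did without knockout vehicle replicate 4 (-0.14, adjusted p = 0.0144).

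Cebpb, a C/EBP partner of ATF4, was 14.54, 14.48, 14.58 and 14.65 with vehicle and 14.59, 14.60, 14.65 and 14.78 with TGF-β1 in wild type cells, a difference of 0.094 ± 0.051 that did not pass (adjusted p = 0.115). In knockout cells it was 14.60, 14.70, 14.67 and 14.71 with vehicle and 14.19, 14.21, 14.21 and 14.34 with TGF-β1 and fell by 1.35-fold (adjusted p = 1.31e-06). All 4 knockout TGF-β1 arrays lay below the other 12. The interaction was -0.53 ± 0.072 (adjusted p = 1.91e-05); the wild type difference turned to -0.16 with quantile normalization, as it did in the values the authors deposited.

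The remaining 3 regulators rose in both genotypes. Atf5, an ATF4 relative, rose by 0.82 ± 0.048 in wild type and 0.79 ± 0.048 in knockout cells, and the 95% interval of the interaction was -0.17 to 0.12; with quantile normalization the interaction was -0.29 and passed. Nupr1, a small stress-induced chromatin protein, rose by 0.54 and 0.80 and was higher in the knockout with vehicle (0.16 ± 0.042, adjusted p = 0.0175) and with TGF-β1 (0.42 ± 0.042, adjusted p = 3.70e-07). Without knockout vehicle replicate 2 the vehicle difference did not pass (adjusted p = 0.0527), and the Nupr1 interaction of 0.25 ± 0.059 was lost with quantile normalization. Cebpg, another ATF4 partner, rose by 0.14 ± 0.05 and 0.23 ± 0.05; in wild type cells that call was lost when any of 4 single arrays was left out (wild type vehicle replicate 2 or 3, or wild type TGF-β1 replicate 1 or 4, with differences of 0.11 to 0.13) and with quantile normalization, while a dimmer probe gave 0.48 and 0.86.

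All 5 stress outputs rose in both genotypes, where 41.3% of all genes rose in wild type and 46.6% in knockout cells. Chac1 encodes an enzyme that breaks down glutathione. In wild type cells its signals were 11.60, 11.70, 11.77 and 11.67 with vehicle and 11.94, 12.16, 12.18 and 12.13 with TGF-β1. Those in knockout cells were 11.15, 11.20, 11.24 and 11.32 with vehicle and 12.29, 12.13, 12.46 and 12.26 with TGF-β1. The knockout vehicle arrays were the lowest, and the TGF-β1 groups of the genotypes overlapped. The knockout minus wild type difference was -0.46 ± 0.068 with vehicle (adjusted p = 4.44e-04) and 0.18 ± 0.068 with TGF-β1 (adjusted p = 0.0262). The latter call was lost without wild type TGF-β1 replicate 1 (0.13, adjusted p = 0.095) or knockout TGF-β1 replicate 3 (0.13, adjusted p = 0.0967), and its value was 0.015 with quantile normalization. The rise was 0.42 ± 0.068 in wild type and 1.06 ± 0.068 in knockout cells, with an interaction of 0.64 ± 0.097 (adjusted p = 4.68e-05).

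Ddit4 encodes REDD1, an inhibitor of the growth kinase complex mTORC1. It read 12.42, 12.25, 12.35 and 12.18 with vehicle and 13.48, 13.70, 13.56 and 13.46 with TGF-β1 in wild type cells. In knockout cells it read 11.53, 12.33, 12.48 and 12.27 with vehicle and 14.08, 13.97, 14.18 and 14.17 with TGF-β1. Knockout vehicle replicate 1 lay below all other arrays, and the TGF-β1 groups lay above both vehicle groups. The rise was 2.38-fold in wild type (1.25 ± 0.15, adjusted p = 3.06e-06) and 3.87-fold in knockout cells (1.95 ± 0.15, adjusted p = 8.60e-09). The interaction of 0.70 ± 0.21 (adjusted p = 0.0106) did not pass with quantile normalization (0.47), in the deposited log2 values or on slide 1 alone.

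Stc2, a secreted stanniocalcin, differed by genotype before any TGF-β1. With vehicle it was 9.36, 9.30, 9.27 and 9.19 in wild type and 9.48, 9.67, 9.66 and 9.82 in knockout arrays, without overlap (0.38 ± 0.059, adjusted p = 6.94e-04). With TGF-β1 it was 10.26, 10.23, 10.28 and 10.27 in wild type and 10.77, 10.86, 10.80 and 10.91 in knockout arrays, again apart (0.58 ± 0.059, adjusted p = 5.34e-07). Both genotypes rose, by 0.98 and 1.18, and the interaction of 0.20 ± 0.084 did not pass (adjusted p = 0.0556). It did pass without wild type vehicle replicate 4 (0.23), knockout vehicle replicate 4 (0.25) or knockout TGF-β1 replicate 1 (0.22).

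Sesn2, a leucine-sensing sestrin, rose by 0.44 ± 0.05 in wild type and 0.28 ± 0.05 in knockout cells. Its interaction of -0.16 ± 0.071 did not pass (adjusted p = 0.0596) and did when wild type vehicle replicate 2 or 3, wild type TGF-β1 replicate 1, knockout vehicle replicate 1 or knockout TGF-β1 replicate 3 was left out (-0.18 to -0.21). Without knockout TGF-β1 replicate 3, Sesn2 also passed as lower in the knockout under TGF-β1 (-0.15). Vldlr, a lipoprotein receptor under ATF4 control, rose by 0.65 ± 0.049 and 0.73 ± 0.049 on its brightest probe, but a dimmer probe gave -0.13 and -0.44, so the direction depends on the probe. The brightest Vldlr probe was also higher in the knockout with vehicle (0.21) and with TGF-β1 (0.29), where the dimmer probe gave 0.26 and -0.048.

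Every measured enzyme of amino acid synthesis rose in wild type cells and rose further in knockout cells, a pattern that 21.2% of all genes showed. Asns makes asparagine from aspartate. Its signals in wild type cells were 12.65, 12.49, 12.69 and 12.73 with vehicle and 14.31, 14.30, 14.38 and 14.35 with TGF-β1. Knockout cells gave 12.62, 12.52, 12.73 and 12.54 with vehicle and 15.03, 15.04, 15.05 and 15.10 with TGF-β1. Both vehicle groups overlapped, while the TGF-β1 groups lay apart, with no knockout array below 15.03. The rise was 3.24-fold in wild type (1.70 ± 0.053, adjusted p = 1.01e-12) and 5.47-fold in knockout cells (2.45 ± 0.053, adjusted p = 3.08e-15), with an interaction of 0.75 ± 0.075 (adjusted p = 7.71e-07).

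The serine route runs through Phgdh, Psat1 and Psph, its enzymes in that order. Phgdh, the entry step from glycolysis, was 13.27, 13.20, 13.27 and 13.27 with vehicle and 14.16, 14.22, 14.27 and 14.21 with TGF-β1 in wild type cells. In knockout cells Phgdh was 13.23, 13.30, 13.32 and 13.31 with vehicle and 14.81, 14.78, 14.90 and 14.91 with TGF-β1. Psat1, the aminotransferase that follows, was 12.34, 12.32, 12.54 and 12.45 with vehicle and 13.37, 13.40, 13.47 and 13.45 with TGF-β1 in wild type cells. In knockout cells Psat1 was 12.34, 12.38, 12.47 and 12.45 with vehicle and 14.31, 14.37, 14.45 and 14.40 with TGF-β1. Psph, the phosphatase that releases serine, was 11.43, 11.30, 11.43 and 11.41 with vehicle and 12.36, 12.41, 12.42 and 12.40 with TGF-β1 in wild type cells. In knockout cells Psph was 11.41, 11.31, 11.37 and 11.31 with vehicle and 13.46, 13.41, 13.56 and 13.43 with TGF-β1. For each of them the vehicle groups overlapped between genotypes and the knockout TGF-β1 arrays were the highest.

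In wild type cells the rises along the route were close to 2-fold, at 0.96 ± 0.038 for Phgdh, 1.01 ± 0.051 for Psat1 and 1.00 ± 0.042 for Psph. In knockout cells they were 1.56 ± 0.038, 1.97 ± 0.051 and 2.11 ± 0.042, and the interactions were 0.60 ± 0.054, 0.96 ± 0.072 and 1.11 ± 0.06 (adjusted p = 2.59e-07, 3.46e-08 and 9.41e-10). Gpt2, the mitochondrial alanine aminotransferase, rose by 0.94 ± 0.075 and 1.41 ± 0.075. With vehicle the genotypes differed in none of the 5 enzymes past the threshold, with differences of -0.039 (Psph) to 0.062 (Gpt2) on the brightest probes. Dimmer probes gave vehicle differences of -0.21 for Asns, -0.22 for Psat1 and 0.056 for Gpt2. The interactions on these dimmer probes were 1.03, 1.24 and 0.61.

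Of the one-carbon enzymes, the 3 mitochondrial ones rose in both genotypes, where 41.3% of all genes rose in wild type and 46.6% in knockout cells. Shmt2, which splits serine into glycine and a one-carbon unit in mitochondria, read 10.49, 10.70, 10.63 and 10.56 with vehicle and 12.12, 12.26, 12.25 and 12.27 with TGF-β1 in wild type cells. In knockout cells Shmt2 was 10.41, 10.52, 10.60 and 10.60 with vehicle and 13.09, 13.06, 13.17 and 13.17 with TGF-β1. Mthfd2, the mitochondrial dehydrogenase after it, read 9.01, 9.08, 9.18 and 9.22 with vehicle and 10.32, 10.33, 10.30 and 10.35 with TGF-β1 in wild type cells. In knockout cells Mthfd2 was 9.17, 8.97, 9.04 and 8.92 with vehicle and 11.36, 11.40, 11.42 and 11.36 with TGF-β1. Within a genotype the treated and vehicle arrays were more than 1 unit apart for both. Shmt2 rose 3.1-fold and 6.02-fold, the second being the largest rise of the list, and Mthfd2 rose 2.3-fold and 5.13-fold. Their interactions were 0.96 ± 0.079 and 1.16 ± 0.075 (adjusted p = 9.85e-08 and 7.63e-09). Mthfd1l, which makes mitochondrial formate, rose by 1.43 ± 0.072 and 2.29 ± 0.072, with an interaction of 0.86 ± 0.10.

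Shmt1, the cytosolic counterpart of Shmt2, did not pass in any comparison. Its signals were 6.05, 5.76, 6.02 and 5.71 with vehicle and 5.69, 5.80, 5.81 and 6.16 with TGF-β1 in wild type cells. Knockout signals were 5.65, 5.69, 5.90 and 5.86 with vehicle and 5.62, 5.79, 6.15 and 5.95 with TGF-β1, and all 4 groups overlapped. The 95% interval of its TGF-β1 difference was -0.29 to 0.24 in wild type and -0.16 to 0.36 in knockout cells. A dimmer Shmt1 probe gave 0.32 and 0.57, and with the mean of both probes, quantile normalization or normexp the knockout rise passed (0.34, 0.30 and 0.21).

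**Figure D3:**
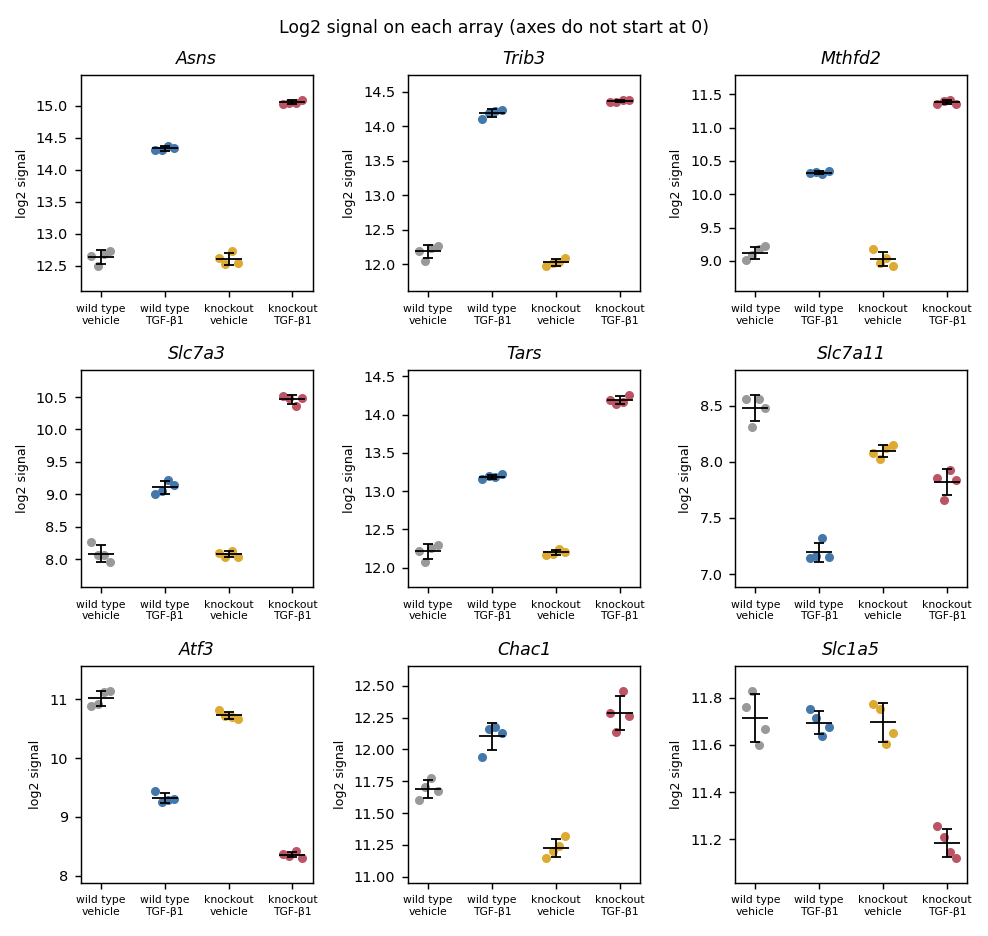
Log2 signal (vertical axes, not starting at 0) of 9 members on each array, by group (horizontal axis), with points for arrays and black bars for the mean ± SD of 4 arrays. Asns, Mthfd2, Slc7a3 and Tars form 3 levels with both vehicle groups lowest, Slc7a11 is lowest in wild type TGF-β1 arrays, and Atf3 and Slc1a5 are lowest in knockout TGF-β1 arrays.

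The transporters divided as well, with 6 of 9 up and 1 down in wild type cells and 6 up and 3 down in knockout cells. Of all genes 41.3% rose and 27.3% fell in wild type cells, and 46.6% and 35.9% in knockout cells. The largest rises among them were in carriers of cationic amino acids such as arginine and lysine. Slc7a3 (CAT3) was 8.27, 8.06, 8.06 and 7.96 with vehicle and 9.00, 9.05, 9.23 and 9.15 with TGF-β1 in wild type cells. In knockout cells Slc7a3 was 8.10, 8.04, 8.13 and 8.03 with vehicle and 10.51, 10.49, 10.37 and 10.49 with TGF-β1. Slc7a1 (CAT1) was 12.00, 11.84, 12.07 and 12.02 with vehicle and 12.80, 12.84, 12.91 and 12.87 with TGF-β1 in wild type cells. In knockout cells Slc7a1 was 11.81, 11.91, 11.84 and 11.92 with vehicle and 13.92, 13.96, 13.95 and 13.88 with TGF-β1. In both, every knockout TGF-β1 array lay above every other array.

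Slc7a3 rose 2.03-fold in wild type and 5.24-fold in knockout cells, and its interaction of 1.37 ± 0.09 (adjusted p = 8.20e-09) was the largest of the list. Slc7a1 rose 1.83-fold and 4.15-fold, with an interaction of 1.18 ± 0.068 (adjusted p = 1.76e-09). Slc7a5 and Slc3a2 encode LAT1 and 4F2hc, which pair to import leucine and other large neutral amino acids. Slc7a5 rose by 0.44 ± 0.14 and 1.06 ± 0.14, and Slc3a2 by 0.36 ± 0.062 and 0.75 ± 0.062. Slc7a5 was 0.37 ± 0.14 higher in knockout cells under TGF-β1 (adjusted p = 0.0253), a call lost without wild type TGF-β1 replicate 1 (0.36), wild type TGF-β1 replicate 4 (0.30) or knockout TGF-β1 replicate 3 (0.27). Its groups overlapped there, and with quantile normalization the Slc3a2 interaction of 0.39 ± 0.088 was lost. Slc6a9, the glycine carrier GlyT1, rose by 0.33 ± 0.039 and 0.60 ± 0.039; its interaction of 0.27 ± 0.055 was likewise lost.

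Slc7a11 encodes xCT, which with 4F2hc imports cystine in exchange for glutamate. In wild type cells it was 8.56, 8.31, 8.56 and 8.48 with vehicle and 7.15, 7.16, 7.32 and 7.15 with TGF-β1. In the knockout it was 8.08, 8.03, 8.12 and 8.15 with vehicle and 7.86, 7.66, 7.93 and 7.84 with TGF-β1. The 4 groups did not overlap, and their order from high to low was wild type vehicle, knockout vehicle, knockout TGF-β1 and wild type TGF-β1. Slc7a11 fell 2.43-fold in wild type cells (adjusted p = 2.42e-10) and 1.21-fold in knockout cells (adjusted p = 0.00136), and the interaction was 1.01 ± 0.093 (adjusted p = 3.47e-07). A dimmer Slc7a11 probe gave -1.91 and -0.82. Its genotype difference changed sign with treatment, from -0.38 ± 0.066 with vehicle (adjusted p = 0.00141) to 0.63 ± 0.066 with TGF-β1 (adjusted p = 6.68e-07).

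The 3 carriers of small neutral amino acids had no common direction. Slc1a5 (ASCT2), a carrier of glutamine, was 11.76, 11.83, 11.60 and 11.67 with vehicle and 11.75, 11.71, 11.64 and 11.68 with TGF-β1 in wild type cells. In knockout cells Slc1a5 was 11.77, 11.75, 11.61 and 11.65 with vehicle and 11.26, 11.21, 11.15 and 11.12 with TGF-β1. The knockout TGF-β1 arrays lay below the other 12, which overlapped. The wild type difference of -0.02 ± 0.054 had an interval of -0.14 to 0.096, the knockout fall was 1.43-fold (-0.51 ± 0.054, adjusted p = 3.81e-07), and the interaction was -0.49 ± 0.077 (adjusted p = 6.43e-05). Slc38a2 (SNAT2) gave -0.10 ± 0.05 in wild type cells, which did not pass (adjusted p = 0.086) but did without wild type vehicle replicate 1 (-0.13) or wild type TGF-β1 replicate 1 (-0.13), and fell by 1.12-fold in knockout cells (-0.17 ± 0.05). Slc1a4 (ASCT1) rose by 0.23 ± 0.083 and 0.19 ± 0.083. The wild type call was lost without wild type vehicle replicate 2 (0.18) or wild type TGF-β1 replicate 3 (0.19). The knockout call was lost without any 1 of 6 arrays (knockout vehicle replicate 1, 2 or 4, or knockout TGF-β1 replicate 2, 3 or 4, with 0.14 to 0.21), and with normexp (0.13), and its sign turned with quantile normalization (-0.0060).

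The enzymes that load amino acids onto cytosolic tRNA moved in a single direction. All 12 rose in wild type cells, by 0.67 (Mars1, methionine) to 1.01 (Aars, alanine), and all 12 rose at least 2-fold in knockout cells, by 1.11 (Lars, leucine) to 1.99 (Tars, threonine). In wild type cells 2 of the 12 reached 2-fold, Aars and Eprs (glutamate and proline). All 12 interactions were positive, from 0.31 for Sars (serine) to 1.11 for Nars (asparagine). For every one of the 12, each TGF-β1 array lay above each vehicle array of its genotype, and each knockout TGF-β1 array above each wild type TGF-β1 array. Among all genes 41.3% rose in wild type and 46.6% in knockout cells, with 3.26% and 9.56% reaching 2-fold. Positive interactions covered 31.7% of all genes. TGF-β1 arrays lay wholly above vehicle arrays for 38% of all genes in wild type and 43.9% in knockout cells. Knockout TGF-β1 arrays lay wholly above wild type TGF-β1 arrays for 37.2%.

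Tars read 12.22, 12.07, 12.26 and 12.29 with vehicle and 13.15, 13.19, 13.18 and 13.22 with TGF-β1 in wild type cells, and 12.17, 12.18, 12.24 and 12.20 with vehicle and 14.20, 14.14, 14.17 and 14.25 with TGF-β1 in knockout cells. It rose 1.97-fold and 3.98-fold, with an interaction of 1.02 ± 0.062 (adjusted p = 3.83e-09). Gars, which charges glycine, read 14.88, 14.74, 14.91 and 14.99 with vehicle and 15.80, 15.77, 15.78 and 15.76 with TGF-β1 in wild type cells, and 14.89, 14.85, 14.95 and 14.90 with vehicle and 16.41, 16.47, 16.44 and 16.53 with TGF-β1 in knockout cells. It rose 1.86-fold and 2.96-fold, with an interaction of 0.67 ± 0.066 (adjusted p = 6.96e-07). Nars read 11.15, 11.10, 11.13 and 10.70 with vehicle and 11.76, 11.99, 11.84 and 11.90 with TGF-β1 in wild type cells, and 10.89, 10.77, 10.77 and 10.65 with vehicle and 12.85, 12.31, 12.89 and 12.87 with TGF-β1 in knockout cells, with 1 low array each in the wild type vehicle and knockout TGF-β1 groups. Its interaction was 1.11 ± 0.18 (adjusted p = 7.87e-05).

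The other charging enzymes filled the range between. Iars (isoleucine) rose by 0.83 and 1.51, Cars (cysteine) by 0.79 and 1.38, Mars1 by 0.67 and 1.31, and Yars (tyrosine) by 0.82 and 1.28. Their interactions were 0.68 ± 0.065, 0.59 ± 0.075, 0.64 ± 0.065 and 0.46 ± 0.06. Aars rose by 1.01 and 1.34, Eprs by 1.00 and 1.35, Wars (tryptophan) by 0.89 and 1.28, Sars by 0.81 and 1.12, and Lars by 0.74 and 1.11. The interactions of these last 5, 0.33, 0.34, 0.39, 0.31 and 0.37, were lost with quantile normalization.

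The comparison of genotypes was run within each treatment. With vehicle, 3 members were higher in the knockout (Nupr1, Vldlr and Stc2), 5 lower (Atf3, Ddit3, Trib3, Chac1 and Slc7a11) and 35 did not pass, against 13.2% of all genes called, 7.07% higher and 6.16% lower. The 35 differences ran from -0.25 to 0.12, and their 95% intervals reached from -0.54 to 0.27. The Trib3 call (adjusted p = 0.0336) was lost when any 1 of 6 of the 8 vehicle arrays was left out, all but wild type vehicle replicate 2 and knockout vehicle replicate 4, with differences of -0.13 to -0.16. Slc7a1 (-0.11) passed without wild type vehicle replicate 2 (-0.16), and Atf5 (0.12) without knockout vehicle replicate 1 (0.16). Within slide 1 alone, with 2 arrays per group, 0 members passed in limma, where 1.27% of all genes did, and 6 had an unadjusted p under 0.05. Within slide 2 alone 4 passed, where 6.81% of all genes did, and 12 had an unadjusted p under 0.05.

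With TGF-β1, 34 members were higher in the knockout, 5 lower and 4 did not pass, against 70.2% of all genes called, 39.6% higher and 30.5% lower. The median difference was 0.43 over members and 0.059 over all genes. With quantile normalization 26 of the 34 were kept and the median was 0.24; the calls of Atf4, Cebpg, Trib3, Chac1, Ddit4, Vldlr, Slc3a2 and Sars were lost. Differences of at least 2-fold numbered 5, all higher in the knockout, where 3.31% of all genes were. These were Psph (1.07 ± 0.042), Mthfd2 (1.06 ± 0.053), Slc7a1 (1.07 ± 0.048), Slc7a3 (1.36 ± 0.064) and Tars (1.00 ± 0.044). The groups did not overlap for 32 higher and 4 lower members, where 37.2% and 27.5% of all genes did not. Lower in the knockout were Atf3, Ddit3, Cebpb, Slc1a5 and Slc38a2.

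**Figure D4:**
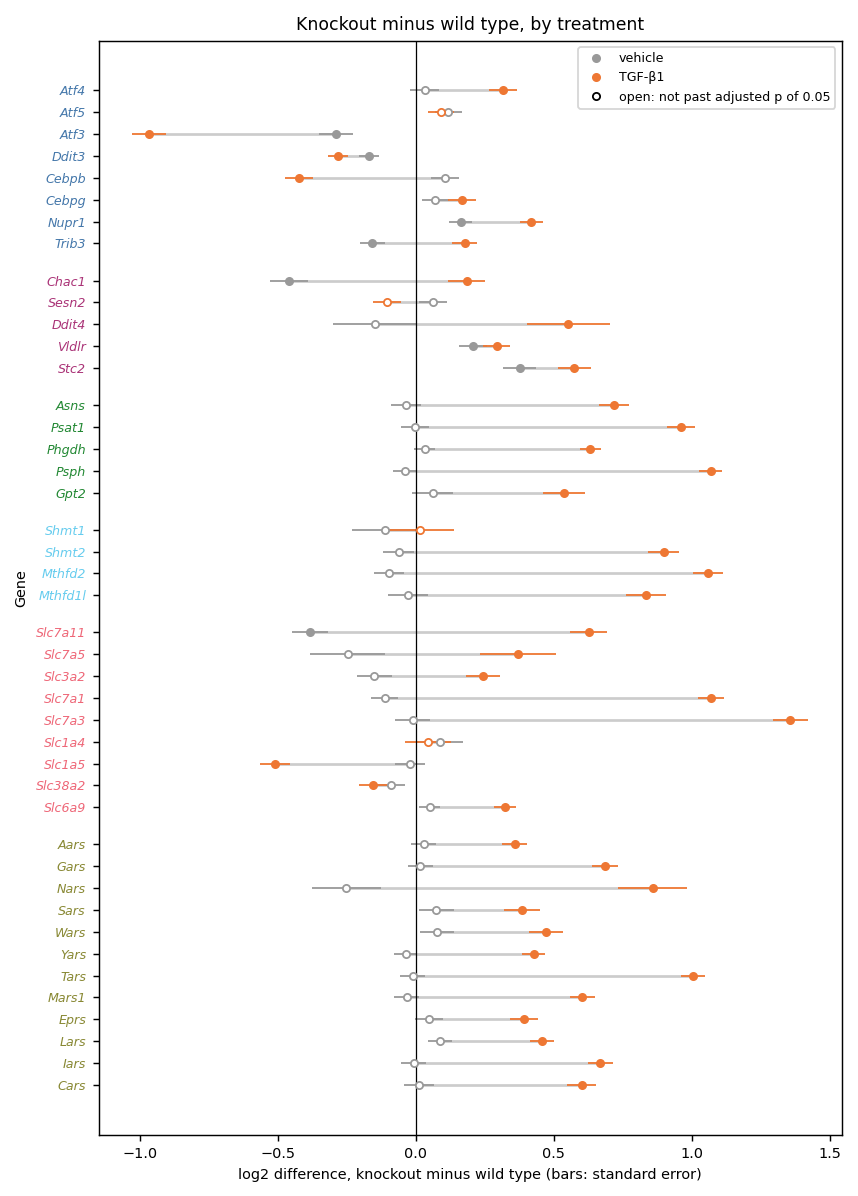
Log2 difference between knockout and wild type (horizontal axis) for each member (vertical axis, coloured by role) with vehicle (grey) and with TGF-β1 (orange), with standard errors as bars and open points where the adjusted p was not under 0.05. Grey points lie between -0.46 and 0.38, while orange points reach 1.36 for Slc7a3 and -0.96 for Atf3.

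Among the members, 28 passed as higher in the knockout with TGF-β1 and did not pass with vehicle, a pattern that 35.1% of all tested genes showed, and whether a gene's genotype differences differ is the interaction given above. Trib3, Chac1 and Slc7a11 were called lower in the knockout with vehicle and higher with TGF-β1, as were 1.16% of all genes. Of these, Slc7a11 kept its TGF-β1 call with quantile normalization, while Trib3 turned to -0.067 and Chac1 went to 0.015 without a call. The vehicle call of Trib3 and the TGF-β1 call of Chac1 were also lost when single arrays were left out, as given with each. The comparisons share arrays, so the values of each gene stand side by side.

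Related genes outside the list were grouped by function, and their counts stand beside all tested genes, of which 41.3% rose and 27.3% fell in wild type cells and 46.6% and 35.9% in knockout cells. The interaction was called positive for 31.7% and negative for 26.5% of all tested genes. Among 11 other cytosolic charging enzymes and their scaffold proteins, 10 rose in wild type cells (median 0.43) and all 11 rose in knockout cells (median 1.00), with 10 positive interactions. Aimp2, a scaffold of the multi-enzyme charging complex, rose by 0.71 ± 0.035 and 1.35 ± 0.035, and Rars, for arginine, by 0.57 ± 0.05 and 1.25 ± 0.05. The 17 mitochondrial charging enzymes were mixed, with 8 up and 3 down in wild type (median 0.13) and 9 up and 5 down in knockout cells (median 0.17), and with 4 positive and 4 negative interactions. Wars2, for mitochondrial tryptophan, fell by 1.7-fold and 2.25-fold, while its cytosolic counterpart Wars rose.

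Upstream of Atf4, a list of 16 genes held eIF2 kinases and regulators of them, eIF2 and eIF2B subunits and phosphatase genes. Of these 13 rose and 2 fell in wild type cells, and 14 rose and 1 fell in knockout cells. Eif2s2 and Eif2s1, the beta and alpha subunits of eIF2, rose by 0.97 ± 0.051 and 0.56 ± 0.044 in wild type and 1.66 ± 0.051 and 1.25 ± 0.044 in knockout cells. The kinases themselves are switched by phosphorylation, which arrays do not read. Of 19 genes of the ATF6 and XBP1 arms of the ER stress response, 12 rose and 2 fell in wild type (median 0.28) and 15 rose and 3 fell in knockout cells (median 0.51). Manf, a secreted ER stress protein, rose by 0.43 ± 0.036 and 1.06 ± 0.036, and Hspa5, the chaperone BiP, by 0.39 ± 0.043 and 0.76 ± 0.043.

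Of 22 other genes of amino acid synthesis and breakdown tested, 9 rose and 8 fell in wild type cells (40.9% and 36.4%, against 41.3% and 27.3% of all genes) and 11 rose and 8 fell in knockout cells (50% and 36.4%, against 46.6% and 35.9%). Bcat1, which transaminates branched-chain amino acids in the cytosol, rose 5.61-fold and 17.1-fold. Cth, which makes cysteine from cystathionine, rose 2.39-fold and 6.71-fold, and Aldh18a1, the entry enzyme of proline synthesis, 2.34-fold and 3.91-fold. Cth had an interaction of 1.49 ± 0.063 (adjusted p = 6.72e-11). Ass1, which joins citrulline and aspartate on the way to arginine, gave 0.079 ± 0.066 in wild type cells (adjusted p = 0.307) and rose 2.53-fold in knockout cells, with an interaction of 1.26 ± 0.094. Glul, which makes glutamine, fell 1.14-fold (adjusted p = 0.0179) and 3.31-fold.

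Among 13 other one-carbon genes 8 rose and 3 fell in wild type cells, and 10 rose and 2 fell in knockout cells. Aldh1l2, a mitochondrial one-carbon enzyme, rose 2.42-fold and 4.42-fold. Its cytosolic counterpart Aldh1l1 rose by 0.23 ± 0.048 in wild type (adjusted p = 7.32e-04) and fell 2.1-fold in knockout cells. The 19 other amino acid transporters tested, of 22 listed, were mixed, with 7 up and 7 down in wild type and 9 up and 9 down in knockout cells. Slc38a4, a carrier of neutral and cationic amino acids, rose 3.48-fold and 8-fold, and Slc1a3, a glutamate carrier, fell 4.73-fold and 27-fold.

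Of 20 genes of mTORC1 and nutrient sensing, 8 rose and 7 fell in each genotype (40% and 35%, against 41.3% and 27.3% of all genes in wild type and 46.6% and 35.9% in knockout cells), with medians of 0.042 and -0.011. Eif4ebp1, the translation repressor 4E-BP1 and a known ATF4 target, rose 2.43-fold and 3.6-fold. Sesn1, a relative of Sesn2, fell 1.63-fold and 3.89-fold, whereas Sesn2 rose. Myc rose by 0.71 ± 0.063 and 1.62 ± 0.063.

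**Figure D5:**
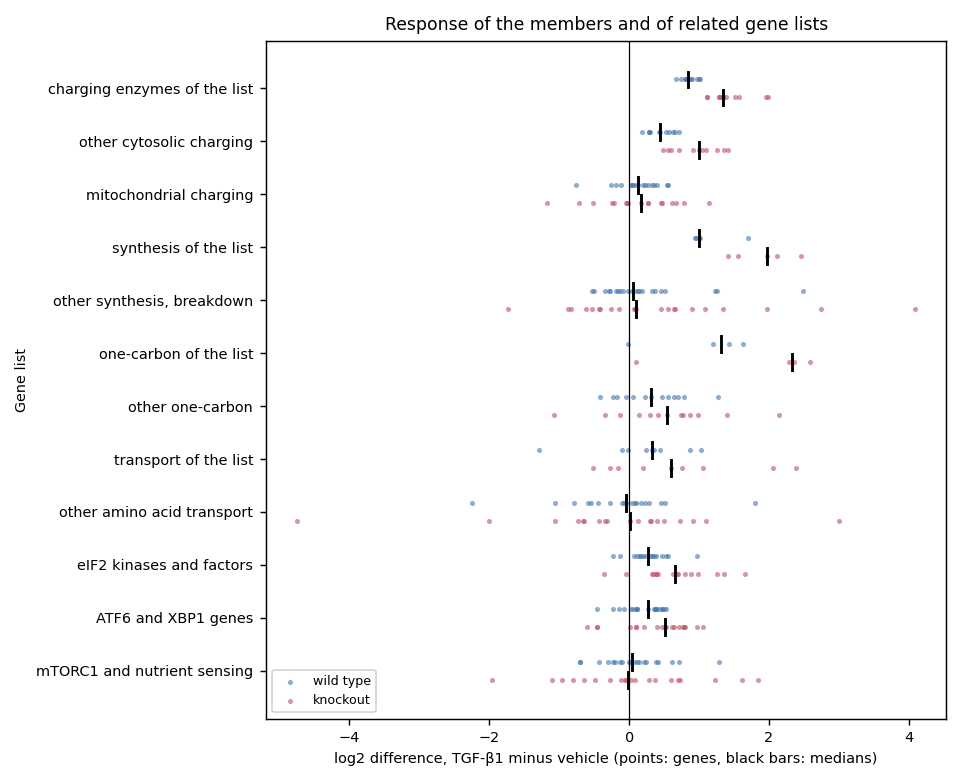
Log2 difference between TGF-β1 and vehicle (horizontal axis) for the genes of each list (vertical axis), in wild type (blue) and knockout cells (red), with a point per gene and a black bar at the median. Cytosolic charging enzymes lie to the right of 0, while mitochondrial charging enzymes lie on both sides with medians of 0.13 and 0.17.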

How the data were processed

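Total RNA of 16 samples was labelled with Cy3 and read on 1-colour Agilent arrays on 2 slides, each with 2 arrays of every group. The deposited files give spot intensity on a linear scale, background-subtracted by Agilent Feature Extraction 11.0.1.1 per the submitters' processing notes and the file headers. The authors also deposited a table of log2 values for 9933 probes, which holds 27 members. How that table was normalized, and its probes picked, is not given in the sources used here, so it served as an alternative.

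Intensities were log2 transformed, averaged per probe and shifted to a common 75th percentile. The 27 probes with outlier marks were left out, and a probe was kept if some group had it well above background on its 4 arrays. Probes were named through RefSeq accessions (GRCm38.p6), and the brightest stood for its gene. Groups were compared with limma 3.58.1 in R 4.3.3, with 1 coefficient per group over 16 arrays, 2-sided p-values and, over 15394 genes, Benjamini-Hochberg adjustment in each of 5 comparisons. The fitting step alone was checked on simulated data, with known shifts added to the wild type TGF-β1 group after scaling. That check did not cover the normalization. The number of arrays limits the precision.

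Members and related lists were chosen with earlier results of these data known. All members may be named; of a related list, up to 4 genes with the smallest adjusted p in a comparison. Alternatives were quantile normalization, normexp (offset 50), the deposited log2 values, other probe filters, the mean of all probes, slide and replicate as blocks, each slide alone and each array left out.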

Additional observations from a re-analysis of the deposited data

Results flagged for a closer look

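Among 172 combinations of a member and a group, 11 held an array that stood apart from the other 3 by Dixon's gap test at the 95% level. Chance alone marks about 1 in 20 groups. Atf5 read 15.26 on knockout vehicle replicate 1, where the other arrays read 15.42 to 15.45, and Cebpg read 10.20 on the same array, where the others read 10.01 to 10.03. Cebpb read 14.34 on knockout TGF-β1 replicate 4 (others 14.19 to 14.21). Sesn2 read 11.12 (others 10.91 to 10.94) and Slc7a3 10.37 (others 10.49 to 10.51) on knockout TGF-β1 replicate 3. Phgdh read 13.20 (others 13.27) and Psph 11.30 (others 11.41 to 11.43) on wild type vehicle replicate 2. Shmt2 read 12.12 on wild type TGF-β1 replicate 1 (others 12.25 to 12.27), and Slc7a11 read 7.32 on wild type TGF-β1 replicate 3 (others 7.15 to 7.16). Nars read 10.70 on wild type vehicle replicate 4 (others 11.10 to 11.15) and 12.31 on knockout TGF-β1 replicate 2 (others 12.85 to 12.89), the widest gaps of the 11.

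The response to TGF-β1 differed between genotypes, by the interaction test in limma, for 34 members, while 58.2% of all genes were called. With quantile normalization 20 of the 31 positive calls and all 3 negative calls were kept. For the regulators the log2 difference between the responses, knockout minus wild type, was 0.28 for Atf4, 0.25 for Nupr1, 0.34 for Trib3, -0.68 for Atf3 and -0.53 for Cebpb. For the stress outputs it was 0.64 for Chac1 and 0.70 for Ddit4. Synthesis and one-carbon enzymes gave 0.75 for Asns, 0.96 for Psat1, 0.60 for Phgdh, 1.11 for Psph, 0.48 for Gpt2, 0.96 for Shmt2, 1.16 for Mthfd2 and 0.86 for Mthfd1l. Among transporters it was 1.01 for Slc7a11, 0.62 for Slc7a5, 0.39 for Slc3a2, 1.18 for Slc7a1, 1.37 for Slc7a3, 0.27 for Slc6a9 and -0.49 for Slc1a5. The charging enzymes gave 0.33 for Aars, 0.67 for Gars, 1.11 for Nars, 0.31 for Sars, 0.39 for Wars, 0.46 for Yars, 1.02 for Tars, 0.64 for Mars1, 0.34 for Eprs, 0.37 for Lars, 0.68 for Iars and 0.59 for Cars. Slc7a11 is the member with a positive value that fell in both genotypes, by less in the knockout.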

How the results depend on the processing

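Over the single members, 4003 of 4134 alternative values kept their direction and side of the threshold, 89 lost a call, 36 gained one and 6 changed sign. Of the 4003, 2026 came from leaving out single arrays, which share most of their data with the main fit. Quantile normalization kept 183 values and slide 1 alone 190, where slide as a block kept 214. Quantile normalization moved most: in wild type cells 4 members were called lower with TGF-β1 and the median was 0.63; the median was 0.94 in knockout cells, 0.24 for genotype under TGF-β1 and 0.20 for the interaction, with 20 positive and 7 negative calls. It turned Cebpb in wild type cells to -0.16, Slc1a4 in knockout cells to -0.0060, and the genotype difference under TGF-β1 to -0.18 for Atf5 and -0.067 for Trib3. The authors' value table holds 27 members, which lowers its counts, and a larger share of its 5255 genes was called. In wild type cells 24 members were higher, where 83.3% of those genes were called. In knockout cells 27 were called, 24 higher and 3 lower (median 1.37), where 92.1% of those genes were called (median -0.36). For genotype with vehicle 5 were called and 1 was higher, where 22% of those genes were called. For genotype with TGF-β1 25 were called and 2 were lower (median 0.48), where 80.2% were called (median 0.012). The median interaction was 0.50, and 0.064 over those genes. In these deposited values Cebpb turned to -0.16 in wild type cells and the Trib3 genotype difference under TGF-β1 to -0.067. Medians of the knockout response were 1.23 with normexp and 1.18 with the mean of all probes. On slide 1 alone, with 2 arrays per group, the wild type median was 0.75. For genotype with vehicle 0 members were called there, higher or lower, where 1.27% of all genes were. On slide 2 alone 4 were called, 1 higher and 3 lower, where 6.81% of all genes were. The cause of these changes was not tested beyond the fewer genes or arrays where named. The brightest probes of all 43 members were well above background on every array, so background bounded no member value. Leaving out each array in turn gave medians of 1.23 to 1.29 for the knockout response and 0.80 to 0.85 for that of wild type cells.

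The values do not settle whether the replicate numbers pair the arrays. Deviations of same-numbered arrays correlated with r of -0.03 to 0.22 (median 0.077), over 0.1 in 8 of 24 pairs. Arrays of other numbers on the same slide had a median of 0.051, over 0.1 in 3 of 24 pairs. Those on different slides had a median of -0.057. Of the 16 arrays, 13 correlated best with their own number. With the replicate block, called members numbered 40 rather than 39 for TGF-β1 in wild type, 9 rather than 8 for genotype with vehicle and 35 rather than 34 for the interaction. The gained calls were Cebpb (0.094), Slc3a2 (-0.15) and Sesn2 (-0.16), and no other member call changed.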

Other observations

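Arrays of the same group varied little together over the members. Across all 16 arrays, after each group's mean was removed, the median Pearson correlation over the 903 pairs of members was 0.16. By role it was 0.40 for the 5 synthesis enzymes, 0.26 for the stress outputs, 0.10 for the regulators, 0.093 for the charging enzymes, 0.072 for the transporters and -0.17 for the one-carbon enzymes. These are descriptions across arrays that share slides and scaling, with no test.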
